A study of Drosophila melanogaster with 216 samples.

Results

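The genes described here encode neuropeptides that act between the brain, the gut and the excretory system of the fruit fly Drosophila melanogaster: NPF, sNPF, Tk, AstA, AstC, Dh31, Dh44, Mip, Pdf and Lk. Of these 10 genes, 8 had a probe set that the platform annotation used here pairs with them alone, among 11981 genes with such a probe set. Tk and AstA were not analysed here.

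Neuropeptides are cut from larger precursor proteins, stored in dense-core vesicles and released from neurons or from enteroendocrine cells, the hormone cells of the gut wall. Most act through G protein-coupled receptors on other neurons, on gut muscle, on the Malpighian tubules (the insect kidney) or on fat body. In flies they are known for setting hunger, meal size, gut movement, water balance and the daily timing of activity. A whole-body array measures the RNA of the precursor, not the peptide or its release.

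RNA of whole bodies was hybridised to Affymetrix Drosophila 2.0 arrays, with 5 flies per array, 4 arrays per group and 54 groups, 216 arrays in all. All flies were kept virgin. Larvae grew on 0.25SY, 1SY or 2.5SY food, and newly emerged adults were moved to one of the same 3 foods for life. 1SY is the standard laboratory food, and the other two hold 0.25 and 2.5 times its sugar and yeast together. Females and males were frozen at 1 day, at middle age, when 10% of their cohort had died, or at old age, when 90% had died, so the calendar age at the later times differed between diets. The 4 arrays of a group are separate pools of flies from the same cohort, so p-values measure the spread between pools. All values below are log2 expression values of 1 probe set, a difference of 1 is a 2-fold change, and levels are compared between samples of 1 gene, never between genes.

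Ovary, testis or muscle genes set 3 old male arrays apart from the other old male arrays. Of the 36 old male arrays, 33 had a mean of 15 ovary and egg markers between 5.63 and 8.23. A further array (larval 0.25SY, adult 2.5SY, replicate 1) had 12.77, as in females, with a mean of 10 testis markers of 6.21 against 11.02 to 11.70 in the 33. Another (larval 1SY, adult 0.25SY, replicate 1) had ovary and egg markers at 9.38. The last (larval 0.25SY, adult 1SY, replicate 3) had muscle markers at 13.96 against 10.67 to 12.21. Results in males are given with all arrays, and the tests of diet and age whose call changes are also given without these 3. A middle-aged male array (larval 2.5SY, adult 1SY, replicate 3) also lay far from its group by limma array weights. In the fit of males at the later ages its weight was 0.111, against 0.0169, 0.0927 and 0.102 for these 3. This middle-aged array was kept in the results without these 3. Neuron markers (elav, brp, Snap25 and 7 others) were measured on every array, with means from 7.99 to 9.90.

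Leucokinin (Lk) had the largest differences between adult 0.25SY and both richer foods of the 8 members in both sexes. Between 1SY and 0.25SY in females, AstC was close to Lk. Leucokinin is a peptide of a few brain and abdominal neurons that drives fluid secretion by the Malpighian tubules and limits meal size. In males of middle age, the 12 arrays on adult 0.25SY ranged from 7.46 to 8.27 with a median of 7.57. The 12 arrays on 1SY ranged from 6.78 to 7.39 (median 7.12), and those on 2.5SY from 6.67 to 7.42 (median 7.00). Every array on the poor food was above every array on both other foods. The share of all probe sets separated in this way was not counted, for this or for the separations of Lk in females below.

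Females showed the same order of Lk levels. At middle age, arrays on 0.25SY had a lowest value of 7.21, a median of 7.90 and a highest of 8.89, against medians of 6.95 on 1SY and 6.88 on 2.5SY. Of the 12 arrays on 0.25SY, 9 were above all arrays on 1SY. At old age, all 12 arrays on 0.25SY (7.10 to 8.21, median 7.42) were above the highest on 1SY (7.03), and 11 were above the highest on 2.5SY (7.14). In old males the medians were 7.36, 7.00 and 6.95 on 0.25SY, 1SY and 2.5SY, and the arrays overlapped.

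Over both later ages, Lk was 1.74-fold lower on 1SY than on 0.25SY in females (-0.80 ± 0.07, SE, 72 arrays, adjusted p = 7.19e-15) and 1.36-fold lower in males (-0.44 ± 0.06, adjusted p = 5.01e-08). From 0.25SY to 2.5SY the differences were -0.82 ± 0.07 in females and -0.51 ± 0.06 in males. Between 1SY and 2.5SY they were -0.02 ± 0.07 and -0.07 ± 0.06, and neither passed the test. Without the 3 old male arrays the male differences from 0.25SY were -0.44 and -0.51. The drop was larger in females than in males (sex by adult diet, adjusted p = 0.000468).

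Lk levels were not set apart by adult food on the first day of adult life. Medians at 1 day were 6.74, 6.69 and 6.60 in females and 6.65, 6.63 and 6.59 in males on 0.25SY, 1SY and 2.5SY. None of the 8 members passed the limma test of adult diet at 1 day in females (2.66% of all 18769 probe sets did) or in males (0.378%). At an unadjusted p under 0.05 there were 4 in females and 0 in males, and the unmoderated F-test called 0 in both.

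**Figure D1:**
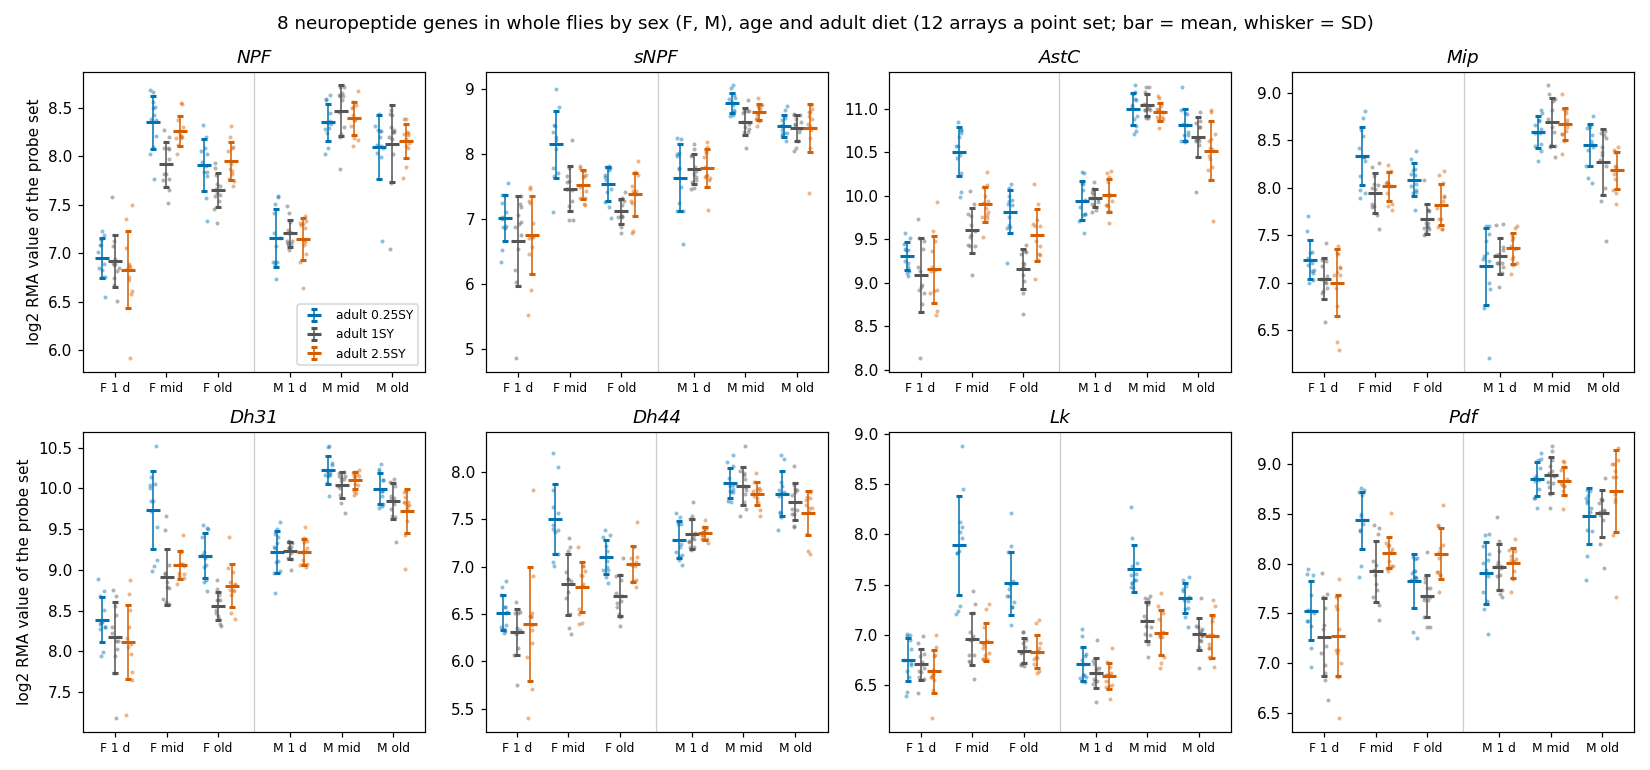
Log2 RMA values of the 8 members on all 216 arrays, by sex, age and adult diet, with points for arrays, bars for means and whiskers for SD (12 arrays each). Lk in middle-aged males on 0.25SY sits between 7.46 and 8.27, above all arrays on the other foods, and all 8 members are higher at middle age than at 1 day.

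All 8 members differed by adult diet in females. The moderated F-test called 8 of 8, against 56.2% of all probe sets. All 8 were lower on 1SY than on 0.25SY (25% of all probe sets were called lower), with differences from -0.33 to -0.80 and a median of -0.55, against 0.00 over all probe sets. On 2.5SY, 6 of 8 were lower than on 0.25SY (19.1% of all), the exceptions being NPF and Pdf. NPF, AstC and Pdf, 3 of 8, were higher on 2.5SY than on 1SY (15.5%). Since whole bodies were measured, fewer peptide-producing cells and less RNA per cell cannot be told apart, nor can a changed share of other tissues in the body.

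NPF and sNPF, peptides that promote food intake, were both lower on 1SY. NPF, the fly relative of vertebrate neuropeptide Y, is made in brain neurons and in midgut endocrine cells. At middle age its 12 arrays on 0.25SY ranged from 7.76 to 8.68 (median 8.40), those on 1SY from 7.52 to 8.27 (median 7.89) and those on 2.5SY from 8.02 to 8.54 (median 8.21). The lowest levels were thus on the middle food, and the ranges overlapped. Over both ages NPF differed by -0.34 ± 0.06 (SE) between 1SY and 0.25SY and by 0.32 ± 0.06 between 2.5SY and 1SY (adjusted p = 5.13e-07 and 1.47e-05), and by -0.02 ± 0.06 between 2.5SY and 0.25SY (95% interval -0.14 to 0.09).

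sNPF, a peptide of many brain neurons that also acts on the insulin-producing cells, had a different shape. Its medians at middle age were 8.23, 7.46 and 7.57 on 0.25SY, 1SY and 2.5SY, with arrays on 0.25SY spread from 7.11 to 8.99. It was lower by 0.55 ± 0.08 on 1SY and by 0.38 ± 0.08 on 2.5SY than on 0.25SY, and the difference of 0.16 ± 0.08 between the richer foods did not pass the test.

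AstC and Mip belong to the allatostatin families, inhibitory peptides made in neurons and gut endocrine cells. Mip peptides also bind the sex peptide receptor. AstC at middle age had 12 arrays on 0.25SY between 9.98 and 10.85 (median 10.57), against 9.09 to 10.05 on 1SY, and 10 of the 12 were above all arrays on 1SY. It was 1.72-fold lower on 1SY than on 0.25SY (-0.78 ± 0.07, adjusted p = 1.09e-13) and higher by 0.35 ± 0.07 on 2.5SY than on 1SY. Mip was lower by 0.40 ± 0.06 on 1SY and by 0.29 ± 0.06 on 2.5SY than on 0.25SY.

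Dh31 and Dh44 are diuretic hormones named for their action on the Malpighian tubules. Dh31, related to calcitonin, is made in gut endocrine cells and in clock neurons. Dh44, related to corticotropin-releasing factor, is made in median brain neurons that sense nutrients. Dh31 had medians of 9.85, 8.82 and 9.06 at middle age and 9.16, 8.57 and 8.78 at old age on 0.25SY, 1SY and 2.5SY. The poor food gave the highest median at both ages. Dh31 was lower by 0.72 ± 0.08 on 1SY and by 0.52 ± 0.08 on 2.5SY than on 0.25SY.

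Dh44 and Pdf differed in their diet response between the 2 later ages in females. The interaction of adult diet and age was called for these 2 of 8 members, with adjusted p of 0.00208 and 0.000946, against 27% of all probe sets. Dh44 on 2.5SY was lower than on 0.25SY at middle age (medians 6.86 and 7.42, -0.72 ± 0.10, SE) but not at old age (medians 7.02 and 7.08, -0.08 ± 0.10, 95% interval -0.28 to 0.12). Pdf, the output peptide of the ventral clock neurons, changed sign between the ages. It was lower on 2.5SY than on 0.25SY at middle age (medians 8.11 and 8.46, -0.33 ± 0.09, adjusted p = 0.00143), where 22.1% of all probe sets were lower. At old age it was higher (medians 8.09 and 7.88, 0.27 ± 0.09, adjusted p = 0.0276), where 6.55% were. The count ran from 0 to 3 when 1 replicate number was left out. On a scale centred on neuron markers both calls were lost (adjusted p = 0.132 for Dh44 and 0.397 for Pdf), and NPF (0.0223) and Mip (0.000313) were called in their place, against 72.3% of all probe sets. In males the limma test called 0 of 8 (0.256% of all probe sets), with 1 at an unadjusted p under 0.05 and 0 by the unmoderated F-test. It called Pdf when the 3 old male arrays were left out (adjusted p = 0.0391), against 1.53% of all probe sets.

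Most related genes were also lower on 1SY in females. Among receptors of the members, 9 of 11 fell from 0.25SY to 1SY and 0 rose, with a median of -0.22. The largest falls were those of SPR (-0.52), the receptor of Mip and of sex peptide, and Dh31-R (-0.50). Among other neuropeptides and peptide hormones, 15 of 23 fell and 2 rose. Akh (-0.66), the hormone that mobilises fat and sugar stores, and Orcokinin (-0.60) fell, while ETH (0.47), the ecdysis-triggering hormone, and CCHa2 (0.22), a nutrient-dependent peptide of fat body and gut, rose. Of 13 genes of peptide processing and vesicle release, 8 fell, led by Rab3 (-0.77) and Cadps (-0.64), and 3 rose, led by Fur2 (0.58) and svr (0.26).

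Neuron markers and ovary markers moved with these differences. Of 10 neuron markers, 9 were lower on 1SY than on 0.25SY in females, with a median of -0.61. Their mean at middle age ranged from 8.48 to 9.90 on 0.25SY, from 8.10 to 8.91 on 1SY and from 8.41 to 8.82 on 2.5SY. All 15 ovary and egg markers were higher on 1SY, with a median of 1.80, and their mean at middle age ranged from 7.68 to 12.90 on 0.25SY and from 12.08 to 13.48 on 1SY. Of 9 markers of enteroendocrine and other peptide-producing cells, 6 were lower and 1 was higher. Most of these 9, among them Rab3, amon and svr, are also processing genes counted above. Of 9 midgut enterocyte markers 4 were lower and 1 was higher. Of 5 muscle markers 3 were lower, of 4 fat body markers 1 was higher and 1 lower, and testis and accessory gland markers gave 1 call in each direction among 10 and 0 among 7.

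The members were therefore also compared after each array was shifted to the same mean of the 10 neuron markers, a scale chosen after the values were seen. On it the median of all probe sets rose by 0.55 from 0.25SY to 1SY in females, and 89.8% of all probe sets were called higher and 3.54% lower. Lk (-0.26), AstC (-0.24) and Dh31 (-0.18) were lower on 1SY also on this scale. NPF (0.20), Pdf (0.21) and Mip (0.14) were higher, and sNPF and Dh44 were at 0.00 and did not pass. The F-test of adult diet in females also lost sNPF (adjusted p = 0.516) and Dh44 (0.327) on this scale, against 95.8% of all probe sets called. From 0.25SY to 2.5SY, Lk (-0.49) and Dh31 (-0.19) were lower and NPF (0.31) and Pdf (0.31) were higher, against 3.77% and 86.8% of all probe sets. In males Lk was lower by 0.37 on 1SY (1.12% of all probe sets were lower) and by 0.40 on 2.5SY (1.69%), and Pdf was higher by 0.23 on 2.5SY (19.6% higher). The part of the tissue mixture in the differences on the deposited scale was not tested beyond this shift.

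**Figure D2:**
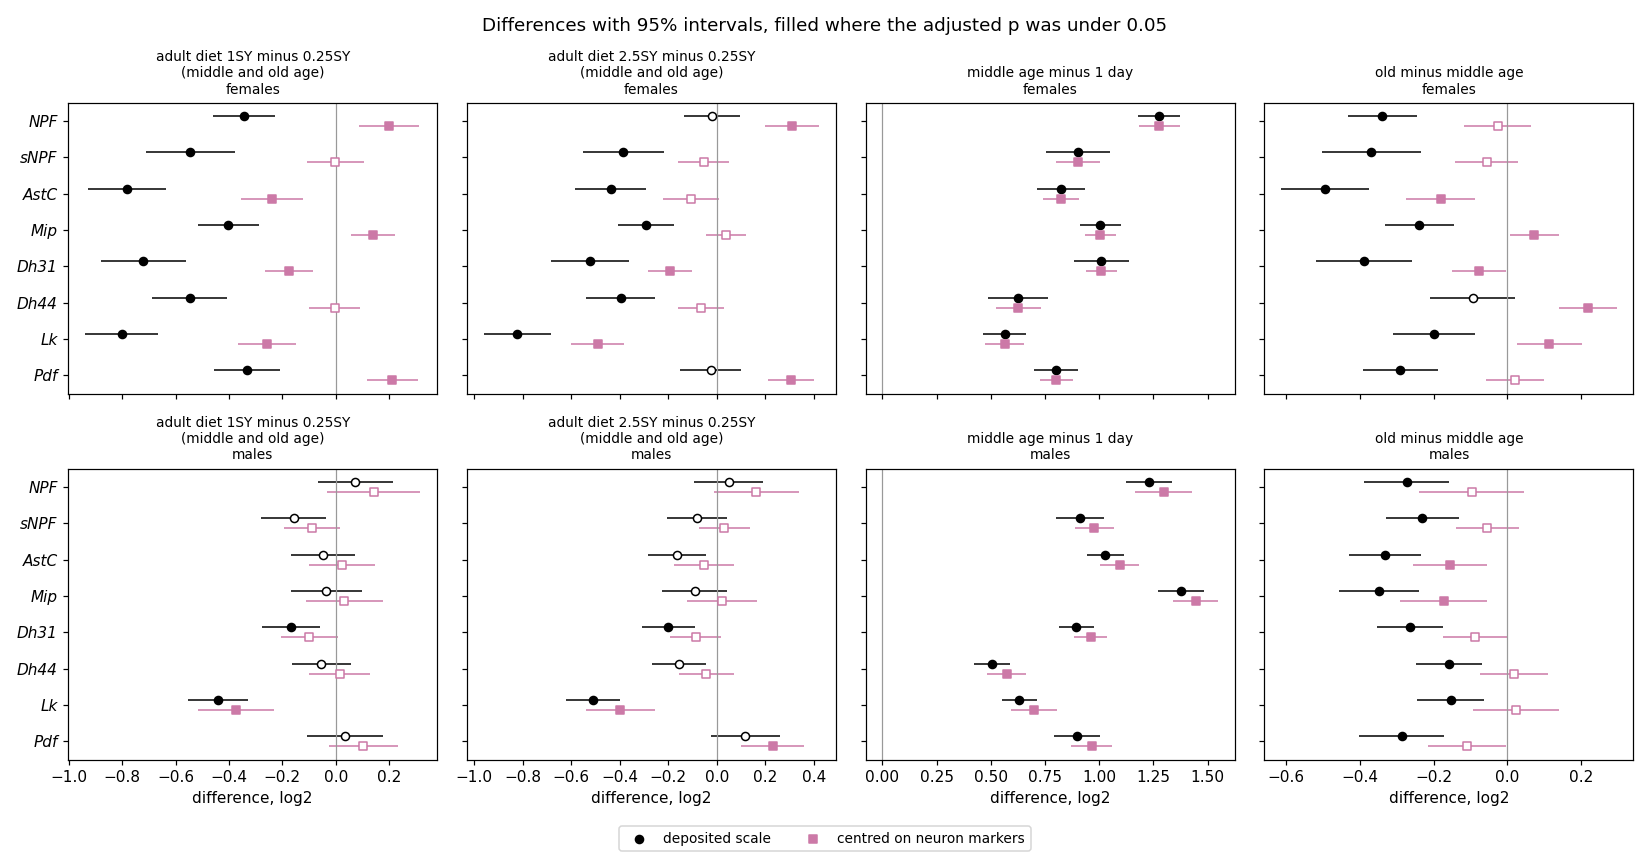
Differences of the 8 members (log2, with 95% intervals) for adult diet and age, females above and males below, on the deposited scale and after centring each array on neuron markers. Filled symbols passed an adjusted p of 0.05. Lk stays below 0 for adult diet on both scales in both sexes, and all 8 members stay above 0 from 1 day to middle age.

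In males, adult diet called 2 of the 8 members, Lk and Dh31, against 13.7% of all probe sets. Both were lower on 1SY and on 2.5SY than on 0.25SY, where 3.91% and 4.48% of all probe sets were lower. Dh31 fell by 0.17 ± 0.06 (SE) on 1SY and by 0.20 ± 0.06 on 2.5SY relative to 0.25SY, with adjusted p of 0.0444 and 0.00888. Its arrays overlapped, with medians at middle age of 10.19, 10.11 and 10.15 on 0.25SY, 1SY and 2.5SY, and both calls were lost on the neuron-centred scale. Without the 3 old male arrays, sNPF was also lower on 1SY (-0.15, adjusted p = 0.0271), Dh44 lower on 2.5SY (-0.14, adjusted p = 0.0469) and Pdf higher on 2.5SY (0.18, adjusted p = 0.0105). The test of adult diet as a whole then also called Pdf (adjusted p = 0.0252), against 20.4% of all probe sets. The neuron markers gave 0 calls of 10 from 0.25SY to 1SY in males and 1 to 2.5SY. Among receptors 1 of 11 was called, NPFR, the receptor of NPF, which rose by 0.35.

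The response to adult diet differed between the sexes for all 8 members (sex by adult diet, adjusted p from 9.97e-10 for AstC to 0.00232 for Pdf), against 46.6% of all probe sets. On the neuron-centred scale this difference was called for AstC alone (adjusted p = 0.00735), against 87.3% of all probe sets. For AstC the difference between 1SY and 0.25SY was -0.78 in females and -0.05 in males.

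Between 1 day and middle age all 8 members rose in both sexes. In females 25.7% of all probe sets were called higher, and in males 37.6%. The differences ran from 0.56 to 1.28 in females and from 0.51 to 1.38 in males, with medians of 0.86 and 0.90 against -0.03 and 0.00 over all probe sets. All 8 were also called higher on the neuron-centred scale in both sexes, where 21.6% and 40.8% of all probe sets were.

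NPF rose most in females and Mip in males. NPF in males ranged over 36 arrays from 6.65 to 7.59 at 1 day (median 7.15) and from 7.87 to 8.72 at middle age (median 8.40). The 2 ages did not overlap. It rose 2.35-fold in males and 2.42-fold in females, where 35 of 36 middle-aged arrays were above all arrays of 1 day.

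Mip in males ranged from 6.21 to 7.62 at 1 day and from 8.29 to 9.08 at middle age, again with no overlap, a 2.60-fold rise (1.38 ± 0.05, SE, adjusted p = 1.61e-39). In females it rose 2.01-fold. AstC, Dh31 and Pdf also had no overlap between these ages in males, with rises of 1.03 ± 0.04, 0.89 ± 0.04 and 0.90 ± 0.05. In females they rose by 0.82 ± 0.06, 1.01 ± 0.06 and 0.80 ± 0.05, with 18, 28 and 27 of 36 arrays above all arrays of 1 day. The share of all probe sets without overlap between these ages was not counted.

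sNPF rose by 0.90 ± 0.08 in females and 0.91 ± 0.06 in males, and Dh44, the smallest rise in males, by 0.63 ± 0.07 and 0.51 ± 0.04. The rise of Lk was widest on poor adult food. In females it was 1.14 with 0.25SY, 0.26 with 1SY and 0.29 with 2.5SY as adult food, and in males 0.95, 0.51 and 0.43. Each of these 6 differences passed the test. The difference between these rises was not tested.

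Receptors and other peptides mostly rose from 1 day as well. Of 11 receptors, 8 rose in each sex, led in females by Lkr (1.01), the receptor of leucokinin, and Dh31-R (0.71), and in males by Lkr (0.98) and Dh44-R2 (0.69). AstC-R1 fell in both (-0.10 and -0.16), and TkR86C fell in males (-0.12). Of 23 other neuropeptides, 16 were called higher and 5 lower in females, and 15 and 5 in males. FMRFa rose most (1.61 and 1.85), with Ms (1.20) in females and Crz (1.32) in males, while Nplp3 (-4.29 and -3.75) and ETH (-1.29 and -2.86) fell. Of the 13 processing genes 8 rose in each sex, led by Phm (0.51), an amidating enzyme, in females and svr (0.52), a carboxypeptidase, in males.

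Neuron markers gave 3 higher and 3 lower in females and 2 higher and 6 lower in males, with medians of -0.03 and -0.15. All 5 muscle markers fell in both sexes, with medians of -3.04 and -2.79, and all 15 ovary and egg markers fell in females (median -1.63). The part of such shifts in tissue in the rise of the members was not tested beyond the neuron-centred scale.

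From middle to old age most members fell. In females 7 of 8 fell, against 21.1% of all probe sets called lower, and in males 8 of 8, against 18.5%. AstC fell most in females (-0.49 ± 0.06, SE, adjusted p = 5.08e-10), from a median of 9.92 to 9.46, and also fell in males (-0.33 ± 0.05), from 10.99 to 10.66. Of 36 old male arrays, 22 were below all middle-aged ones for AstC, while in females 5 were. Mip fell most in males (-0.35 ± 0.05), from a median of 8.64 to 8.38.

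The other falls were smaller. NPF fell by 0.34 ± 0.05 in females and 0.27 ± 0.06 in males, sNPF by 0.37 ± 0.07 and 0.23 ± 0.05, Dh31 by 0.39 ± 0.07 and 0.26 ± 0.05, and Pdf by 0.29 ± 0.05 and 0.29 ± 0.06. Lk fell by 0.20 ± 0.06 and 0.15 ± 0.05, and within adult diets this passed only on 0.25SY (-0.38 and -0.30). Dh44 fell in males (-0.16 ± 0.05) and differed by -0.09 ± 0.06 in females, with a 95% interval from -0.21 to 0.02. Without the 3 old male arrays all 8 male falls remained, at -0.12 to -0.31. With all arrays no member had an age difference that was called as unequal between the sexes (sex by age, 0 of 8 by limma against 25.8% of all probe sets, 1 at an unadjusted p under 0.05 and 0 by the unmoderated F-test). AstC was called when the 3 old male arrays were left out (adjusted p = 0.0184, 32.4% of all probe sets), and on the neuron-centred scale Dh44 (0.00871) and Mip (0.00415) were (31.1%).

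Neuron markers fell over the same interval. In females 9 of 10 did (median -0.28) and in males 6 (median -0.19), and 9 and 8 of 9 midgut enterocyte markers fell (medians -0.98 and -0.73). On the neuron-centred scale, AstC fell in both sexes (-0.18 and -0.16) and Mip in males (-0.17), where 3.77% of all probe sets fell in females and 4.32% in males. Dh31 in females also fell (-0.08), while Dh44 (0.22), Lk (0.11) and Mip (0.07) were higher in old females, as 89.4% of all probe sets were. Among receptors 5 of 11 fell in females, led by SPR (-0.32) and Dh31-R (-0.19), and 4 fell and NPFR (0.24) rose in males. Of other neuropeptides, 11 and 13 of 23 fell, with Nplp3 furthest in both (-1.19 and -1.75).

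On the first day of adult life the levels of the members differed by larval diet. In females all 8 were called, against 38.9% of all probe sets, and in males 3 (sNPF, AstC and Mip), against 2.34%. Flies from 0.25SY larval food had the highest mean of every member in both sexes. In males this order came without a call for NPF, Dh31, Dh44, Pdf and Lk, and adjusted p of the F-test ran up to 0.99997. For Dh44, 2 of 12 male arrays after 0.25SY were above all arrays after 1SY.

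sNPF showed the widest larval difference. In 1-day-old females it ranged from 7.06 to 7.56 after 0.25SY (12 arrays, median 7.31), from 4.87 to 7.11 after 1SY (median 6.49) and from 5.53 to 7.03 after 2.5SY (median 6.88). All 12 arrays after poor food were above every array after 2.5SY, and 11 were above every array after 1SY. It was 1.96-fold lower after 1SY (-0.97 ± 0.13, SE, adjusted p = 2.61e-09) and lower by 0.55 ± 0.13 after 2.5SY than after 0.25SY.

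For AstC, Mip and Pdf all 12 female arrays after 0.25SY were above all 12 after 1SY. For these and for the separation of sNPF above, the share of all probe sets separated in this way was not counted. AstC ranged from 9.36 to 9.92 after 0.25SY and from 8.13 to 9.22 after 1SY, and Pdf from 7.50 to 7.94 and from 6.62 to 7.42. The differences between 1SY and 0.25SY were -0.62 ± 0.10 for AstC, -0.43 ± 0.08 for Mip, -0.70 ± 0.09 for Pdf, -0.72 ± 0.11 for Dh31, -0.51 ± 0.08 for NPF, -0.36 ± 0.12 for Dh44 and -0.29 ± 0.09 for Lk. All 8 were thus lower after 1SY, as 18.4% of all probe sets were. After 2.5SY, 7 of the 8 were lower than after 0.25SY (11.5% of all), Dh44 being the exception (-0.14 ± 0.12). sNPF (0.42) and Pdf (0.28) were higher after 2.5SY than after 1SY (3.37% of all).

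In 1-day-old males the calls came from the widest pair of foods. From 0.25SY to 2.5SY, sNPF differed by -0.43 ± 0.10 (adjusted p = 0.0061), Mip by -0.37 ± 0.09 (adjusted p = 0.0176) and AstC by -0.28 ± 0.07 (adjusted p = 0.0244), where 1.16% of all probe sets were lower. Their medians were 8.01 and 7.67, 7.55 and 7.20, and 10.16 and 9.89, with overlap between the foods for each. The male count of 3 moved from 0 to 2 with 1 replicate number left out, to 6 without the 3 old male arrays, which enter only through the shared spread, and to 0 on the neuron-centred scale. The members added without these arrays were Dh31, Lk and NPF (adjusted p = 0.0136, 0.0346 and 0.046), against 5.26% of all probe sets.

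Neuron markers followed larval food in females too. At 1 day 9 of 10 were lower after 1SY than after 0.25SY (median -0.55). On the neuron-centred scale sNPF (-0.44), Dh31 (-0.19) and Pdf (-0.17) were lower and Lk (0.25) was higher after 1SY, against 1.42% of all probe sets lower and 89% higher. Among receptors 4 of 11 fell, led by SPR (-0.68) and Lkr (-0.48), and of other neuropeptides 16 of 23 fell, led by Ms (-0.82) and Nplp1 (-0.76). Of 13 processing genes 7 fell, led by Rab3 (-0.93) and amon (-0.85), the proprotein convertase of peptide precursors, and 2 rose, Fur2 (0.24) and svr (0.20).

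At the later ages none of the 8 members passed the limma test of larval diet in females (0.0639% of all probe sets did) or in males (0.272%). At an unadjusted p under 0.05 there were 1 and 2, and the unmoderated F-test called 0 in both. The differences between larval 1SY and 0.25SY lay between -0.08 and 0.04 in females, with 95% intervals inside -0.23 to 0.20, and between -0.09 and 0.09 in males, inside -0.20 to 0.23. The intervals at 1 day and later do not overlap in females for 6 of the members but do for Dh44 and Lk, and the difference between ages was not tested. Without the 3 old male arrays, the F-test of larval diet in males called NPF, Dh31 and Dh44 (adjusted p = 0.0486, 0.0429 and 0.0431), against 5.08% of all probe sets.

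**Figure D3:**
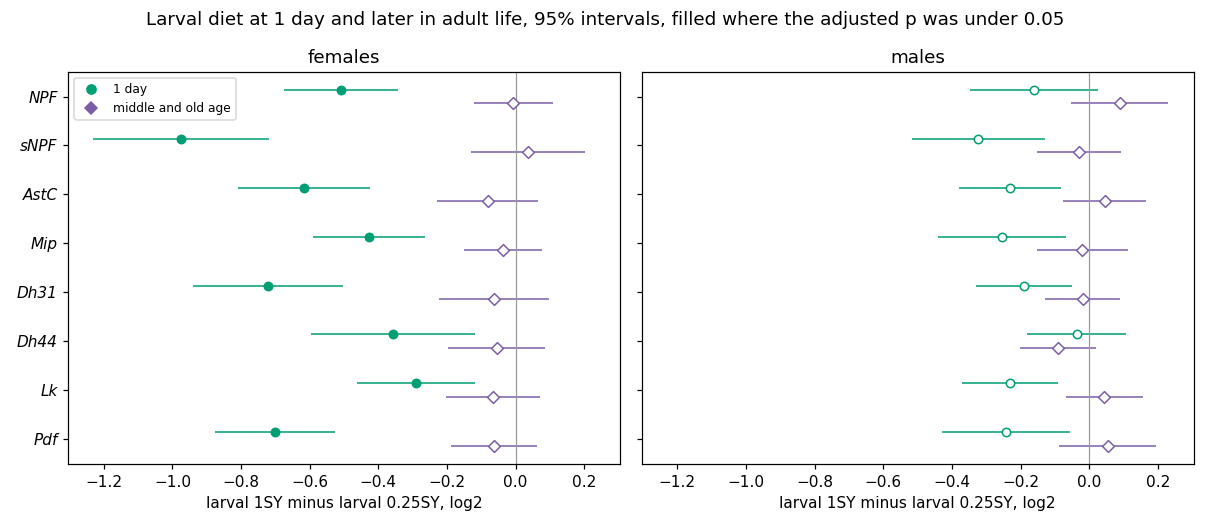
Difference between larval 1SY and larval 0.25SY for the 8 members (log2, 95% intervals) at 1 day and over the 2 later ages, by sex, filled where the adjusted p was under 0.05. In females all 8 are called at 1 day (-0.29 to -0.97) and none later, where values lie between -0.08 and 0.04.

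At the later ages the response to adult food in females differed by larval food for some members. The interaction of larval and adult diet was called for 3 of 8 members, Pdf (adjusted p = 0.016), Lk (0.0167) and NPF (0.0481), against 3.6% of all probe sets. It was called for 0 of 8 in males by limma (0.0213% of all probe sets, 0 at an unadjusted p under 0.05, 0 by the unmoderated F-test).

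For Lk the medians on adult 0.25SY rose with larval food, and the ranges overlapped. Over the 8 arrays of both later ages, females from larval 2.5SY ranged from 7.54 to 8.89 (median 7.92), those from 1SY from 7.24 to 8.12 (median 7.48) and those from 0.25SY from 7.10 to 8.07 (median 7.28). At old age the 4 arrays from larval 2.5SY (7.83, 8.21, 7.88 and 7.54) were all above the 4 from larval 0.25SY (7.28, 7.10, 7.27 and 7.38). At middle age the arrays from these larval foods overlapped. The limma test of larval diet by adult diet by age did not call Lk in females (adjusted p = 0.965), against 0.613% of all probe sets. The separation at old age was not tested on its own. On adult 1SY the medians were 6.93, 6.81 and 6.85 from larval 0.25SY, 1SY and 2.5SY.

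NPF and Pdf had a crossing pattern. On adult 0.25SY, NPF ranged from 7.34 to 8.42 (median 7.91) from larval 0.25SY and from 7.90 to 8.66 (median 8.35) from larval 2.5SY. On adult 2.5SY its medians had the opposite order, 8.29 from larval 0.25SY and 7.97 from larval 2.5SY. Pdf medians were 7.94 and 8.25 from larval 0.25SY and 2.5SY on adult 0.25SY, and 8.18 and 7.94 on adult 2.5SY. The arrays overlapped for both genes. The count of 3 moved from 0 to 5 when 1 replicate number was left out. On the neuron-centred scale 0 of 8 members were called by limma, against 70.9% of all probe sets, with adjusted p of 0.118 for Lk, 0.235 for Pdf and 0.874 for NPF.

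**Figure D4:**
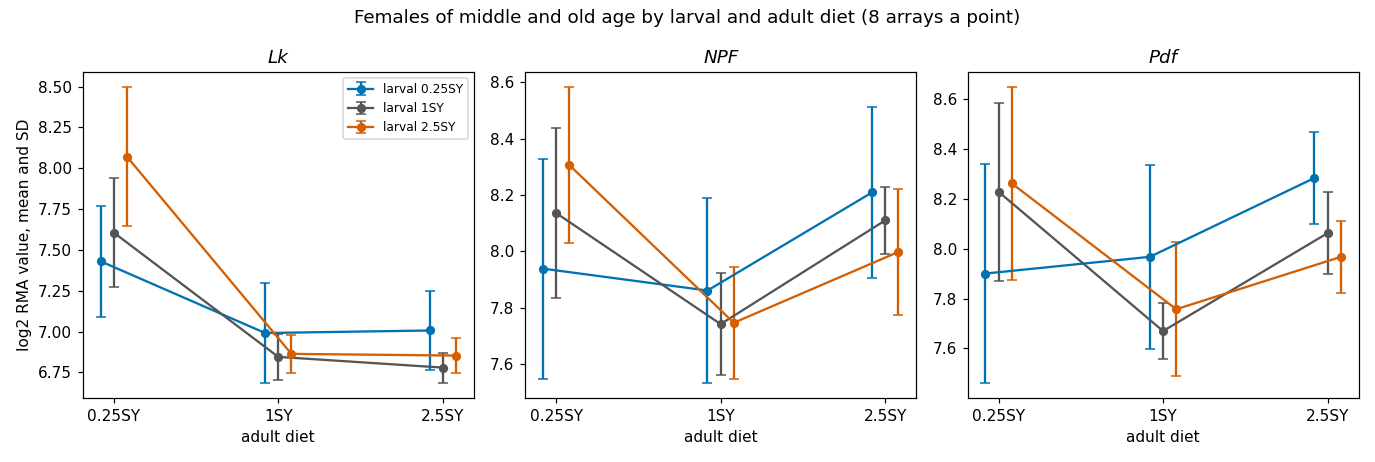
Mean log2 values of Lk, NPF and Pdf in females of middle and old age against adult diet, with 1 line per larval diet and bars for SD (8 arrays each). On adult 0.25SY, Lk is at 8.07 from larval 2.5SY and 7.43 from larval 0.25SY, and the lines of NPF and Pdf cross between adult 0.25SY and 2.5SY.

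Between the sexes, 7 of 8 members were higher in males at each age, against 30.2%, 28.6% and 30% of all probe sets at 1 day, middle age and old age. At middle age the differences were 1.00 ± 0.05 (SE) for AstC, 0.93 ± 0.07 for sNPF, 0.88 ± 0.05 for Dh31, 0.80 ± 0.06 for Dh44, 0.70 ± 0.05 for Pdf, 0.55 ± 0.05 for Mip and 0.23 ± 0.05 for NPF. Lk differed by 0.01 ± 0.05. The median of all probe sets was -0.26, 8 of 10 neuron markers were higher in males, and whether both sexes were normalised together is not stated.

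The sign for some members turned with the scale. With arrays centred on their own medians, NPF was lower in males at all 3 ages (-0.19, -0.25 and -0.26), as was Mip at 1 day (-0.29) and old age (-0.11). On the neuron-centred scale sNPF, AstC and Dh31 were higher in males at each age, where 16.8%, 15.8% and 14.3% of all probe sets were, and Lk was lower (-0.73, -0.60 and -0.69). On that scale 79.6%, 80.8% and 82.2% of all probe sets were lower in males, and Lk was less far below 0 than the median of all probe sets at each age.

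The 8 members also resembled each other across groups. Over 27 group means, Pearson's r between 2 members ran from 0.681 to 0.967 in females (median 0.891 over 28 pairs) and from 0.745 to 0.984 in males (median 0.928). All pairs share the same arrays, the step from 1 day and the tissue mixture. Among 10972 genes, those most like NPF were Mip (r of 0.967 in females and 0.974 in males), CG32726 and Trissin. Mip was closest to Orcokinin (0.984 and 0.982), then CG14645 and NPF.

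The closest genes to the other members were partly neuropeptides as well. Dh31 was followed by Orcokinin, AstC and CG4577, AstC by Dh31, CG7778 and yellow-d, and sNPF by Dh31, CG31706 and JIL-1. Dh44 was followed by CG4577, Dh31 and Gpb5, and Pdf by CG12239, CG5646 and Pgant4. Lk stood with other genes, CG7191 (0.952 and 0.931), CG31974 and SecCl, a chloride channel gene.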

How the data were processed

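Whole virgin flies were profiled on 216 arrays, 108 per sex. The deposited table gives 1 log2 value per probe set and array, which the authors obtained by RMA (version not given in the sources used here): background correction, quantile normalization and summary over probes. The methods describe this for each sex separately and for the later ages, after some arrays had been left out as outliers. The deposited table holds all 216, and whether it was normalised per sex is not stated. Arrays carry no read depth, and precision rests on their number.

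Of 18952 probe sets, 183 controls were left out and 18769 tested. The platform annotation gave 1 symbol for 13646, several for 402 and none for 4721, and 13543 symbols were updated through Entrez identifiers. A gene is read at its brightest probe set. For each sex, the 72 arrays of the later ages were fitted with limma 3.58.1 (R 4.3.3) by a factorial model of age and both diets with every interaction. Group means were fitted over 3 ages for contrasts with 1 day, and over both sexes for sex. Moderated tests were adjusted by Benjamini-Hochberg over all 18769 probe sets, with a threshold of 0.05. The fits were tested on simulated data.

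All members are named in every comparison. From each list of receptors, other neuropeptides, processing genes and cell type markers, up to 4 called genes with the largest differences are named, at most 2 in each direction, and for each member the 3 genes with the most similar group means (mean log2 value of at least 5). Members and lists were chosen with earlier results of these data known. Alternatives were an F-test without moderation (plain ANOVA, unmoderated F-test in the text), a filter on dim probe sets, quantile normalization per sex, median centring, array weights, a replicate block, blocks of 24 provider numbers, each replicate number left out, 1 probe set per gene, the methods' rule on interactions, a fit of 3 ages, omission of 3 old male arrays and, added after the data were seen, centring on neuron markers. Replicate numbers do not pair arrays: the mean correlation of deviations was -0.00136 in females and -0.00272 in males for the same number. Figures were drawn with matplotlib.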

Additional observations from a re-analysis of the deposited data

Results flagged for a closer look

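The response to adult diet differed between females and males for all 8 members. The adjusted p of the sex by adult diet term was 8.75e-05 for NPF, 0.00216 for sNPF, 9.97e-10 for AstC, 4.23e-06 for Dh31, 1.00e-05 for Dh44, 0.000996 for Mip, 0.00232 for Pdf and 0.000468 for Lk. The differences between adult 1SY and 0.25SY behind them were -0.34, -0.55, -0.78, -0.72, -0.55, -0.40, -0.33 and -0.80 in females, in that order, and lay between -0.44 (Lk) and 0.07 (NPF) in males. On the scale centred on neuron markers this difference was called for AstC alone.

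In females the response to adult diet differed between middle and old age for Dh44 (adjusted p = 0.00208) and Pdf (0.000946). Both calls were lost on the neuron-centred scale (0.132 and 0.397), where NPF and Mip were called. Larval food changed the response to adult food in females for NPF (adjusted p = 0.0481), Pdf (0.016) and Lk (0.0167), none of which was called on the neuron-centred scale.

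In 19 of 432 groups of 4 arrays (8 members, 54 groups each), 1 array lay far from the other 3 relative to the range of the group. Chance flags about 1 group in 20. The far array was the lowest in 13 of the 19. The arrays of old males from larval 0.25SY on adult 1SY included 7.04 for NPF, on the array with high muscle markers. Old males from larval 0.25SY on adult 2.5SY had far values of 9.01 for Dh31, 7.13 for Dh44 and 7.66 for Pdf. These values were all on the array with ovary markers as in females. Old males from larval 1SY on adult 0.25SY had 7.83 for Pdf on replicate 4. The array of that group with ovary markers at 9.38 was replicate 1, with Pdf at 8.52. In old males from larval 2.5SY on adult 2.5SY, Dh44 had 7.16.

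Females of 1 day from larval and adult 2.5SY had far low values for 3 members on 1 array, sNPF (5.53), Dh31 (7.22) and Mip (6.30), and those from larval and adult 0.25SY had 7.50 for Pdf. Middle-aged females from larval 0.25SY on adult 1SY had 6.35 for Dh44 and 7.43 for Pdf, and on adult 2.5SY a high value of 8.50 for Pdf. Old females from larval 2.5SY on adult 1SY had high values of 7.27 for sNPF and 7.76 for Mip. In males, high values were 8.82 for sNPF (middle age, larval 0.25SY, adult 1SY), 9.26 for Dh31 (1 day, larval 1SY, adult 2.5SY) and 8.72 for Mip (middle age, larval 2.5SY, adult 1SY), and a low one was 6.67 for Lk (middle age, larval 1SY, adult 2.5SY).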

How the results depend on the processing

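The direction of 93 single differences and 40 counts of members were followed through each alternative. The unmoderated F-test changed 1 count, larval by adult diet in females, from 3 to 2. The replicate block changed the same count from 3 to 2, with NPF lost (adjusted p = 0.0606), and no other call. With the block, adult diet called 8 of 8 members in females and 2 in males, as without it. Since the replicate numbers share nothing but a number (21 of 108 arrays in each sex were on average most like arrays of their own number), no pairing was used.

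Counts that moved were mostly those in males and of interactions. A filter at a mean log2 value of 5 gave 4 members for adult 2.5SY against 0.25SY in males in place of 2, as did 1 probe set per gene (4). Quantile normalization per sex gave 4 in place of 2 for adult diet by age in females, and in males 1 in place of 2 for adult 1SY against 0.25SY and 1 in place of 3 for larval diet at 1 day. Median centring gave the same 1 and 1 in males, and 1 in place of 0 for sex by age. Blocks of provider numbers gave 1 in place of 3 for larval by adult diet in females and 1 in place of 3 for larval diet at 1 day in males. Counting adult diet in females only without an interaction gave 4 in place of 8.

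Array weights gave 6 in place of 2 for adult diet by age in females, 3 in place of 0 for adult diet at 1 day in females and 3 in place of 0 for sex by age. In males they gave 2 in place of 0 for larval diet, 4 in place of 2 for adult diet and for adult 2.5SY against 0.25SY, 1 in place of 0 for adult diet by age and for larval 2.5SY against 0.25SY, and 7 in place of 3 for larval diet at 1 day. Without the 3 old male arrays the counts in males were 3 for larval diet, 1 for adult diet by age, 4 for adult 2.5SY against 0.25SY, 2 for larval 2.5SY against 0.25SY and 6 for larval diet at 1 day, with 1 for sex by age. Adult diet in males then also called Pdf, and adult 1SY against 0.25SY also called sNPF. The cause of these moves was not tested.

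With 1 replicate number left out, members called ran from 0 to 5 for larval by adult diet in females, 0 to 3 for adult diet by age in females, 3 to 5 for adult 2.5SY against 1SY in females, 1 to 2 for adult diet, adult 1SY against 0.25SY and adult 2.5SY against 0.25SY in males, 0 to 2 for larval diet at 1 day in males and 5 to 8 for sex by adult diet. Members called for age and for old minus middle age ran from 6 to 7 in females and from 7 to 8 in males. For larval diet at 1 day in females they ran from 7 to 8.

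Median centring turned NPF between the sexes (-0.19 at 1 day, -0.25 at middle age and -0.26 at old age, males minus females) and Mip (-0.29 at 1 day and -0.11 at old age). Centring on neuron markers moved most: 0 in place of 3 for larval by adult diet and 3 in place of 8 for larval diet at 1 day in females, 2 in place of 8 for age and for old minus middle age, 1 in place of 2 for adult 1SY against 0.25SY and 0 in place of 3 for larval diet at 1 day in males, 1 in place of 8 for sex by adult diet and 2 in place of 0 for sex by age. In females it also took sNPF and Dh44 from the members called for adult diet (95.8% of all probe sets were called). For age in females NPF, sNPF and Pdf lost their call and Dh44 gained one (93.1% of all probe sets were called).

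Centring on neuron markers turned 25 single differences. For adult 1SY against 0.25SY in females these were NPF (0.20), Mip (0.14) and Pdf (0.21), and for 2.5SY against 0.25SY Mip (0.039). For old minus middle age they were Mip (0.074), Pdf (0.022) and Lk (0.11) in females and Dh44 (0.019) and Lk (0.023) in males. For males minus females they were NPF (-0.40, -0.38 and -0.45) and Mip (-0.50, -0.056 and -0.30) at 1 day, middle and old age, Pdf at 1 day (-0.069) and old age (-0.038) and Dh44 at old age (-0.010). For larval diet at 1 day in females they were NPF (0.026), Dh44 (0.18), Mip (0.11) and Lk (0.25) for 1SY against 0.25SY and NPF (0.058), Mip (0.022) and Lk (0.018) for 2.5SY against 0.25SY. By construction this scale removes what a member shares with the neuron markers. Dim probe sets lie near background, where array differences are compressed, and 4 arrays per group limit what small differences can show.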
